A study of Homo sapiens with 6 samples.

Results

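Mitosis and spindle genes are described here as 44 protein-coding genes of the 18806 symbols in the deposited table, chosen by name for their roles as mitotic kinases and cyclins, spindle checkpoint, kinetochore, anaphase, chromosome and cytokinesis genes. All 44 were in the table, and all had at least 1 TPM (a share of the library's transcripts, corrected for their length) in every library. The cells were Mono-mac-6, an established line of acute myeloid leukemia of the monocytic kind, in which MLL is fused to AF9. Every library came from a single Cas9-expressing clone of this line, transduced with lentivirus and selected with blasticidin and hygromycin B. Poly(A)+ RNA was sequenced in 2 libraries from each of 3 groups: the control guide sgNS, a first guide against DDX6 (sgDDX6.1) and a second one (sgDDX6.2). Harvest was 8 days after infection by the labels, but the stated selection could last longer, so the day is uncertain. Whether replicates were separate cultures is not stated, so a p-value here covers only the spread between 2 libraries, which may be technical.

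Mitotic genes are switched on together late in the cell cycle, and many of their mRNAs are lost again as cells return to G1. Their promoters are known targets of the DREAM and MuvB complexes, which bind the cell cycle genes homology region (CHR) and act with the factor NF-Y on CCAAT boxes. DDX6 is an RNA helicase that helps to repress and decap mRNAs in processing bodies. In bulk RNA, more cells in mitosis and more mitotic mRNA per cell cannot be told apart.

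The targeted gene was looked at first. On chromosome 11 (118747766 to 118791149, GRCh38, minus strand), DDX6 had 102.12 and 99.50 TPM in sgNS, 54.41 and 51.97 in sgDDX6.1, and 52.33 and 53.46 in sgDDX6.2. It fell by 0.91 on the log2 scale over both guides (SE 0.04, adjusted p = 4.61e-09). The difference between the guides in DDX6 was -0.01 (SE 0.05, adjusted p = 0.918). Of 12 monocyte and myeloid markers, 9 had at least 1 TPM in every library, and their summed level was between 10174 and 10662 TPM in sgNS and between 14560 and 15800 in sgDDX6 libraries. Most of that sum was lysozyme (LYZ), and without LYZ it was between 631 and 643 TPM in sgNS and between 730 and 896 in sgDDX6 libraries. Its members moved both ways: the granule enzyme MPO had 79.73 and 86.71 TPM in sgNS and between 28.99 and 41.51 in sgDDX6 libraries, and the Fc receptor FCGR1A 24.73 and 21.60 against 13.68 to 16.07. The monocyte marker CD14 was low, from 0.37 to 1.36 TPM. T cell, B cell and erythroid or megakaryocyte markers summed to at most 5.23 TPM in any library. The epithelial and stromal list summed to between 85.9 and 87.9 TPM in sgNS and between 148 and 220 in sgDDX6 libraries, most of it PECAM1, an adhesion molecule of endothelium and leukocytes, while the keratin KRT18 had from 10.75 to 19.82 TPM and KRT8 from 0.57 to 1.25. EPCAM had at most 0.03 TPM, and KRT19 and CDH5 were listed at 0 throughout. The part of these markers in the results was not tested. Ribosomal protein genes held from 23.6% to 23.7% of TPM in sgNS and from 18.1% to 19.2% in sgDDX6 libraries, and a share given up by abundant genes raises all other TPM values.

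The promoters are shown first, because CCAAT boxes and CHR cores are the known elements of late cell cycle promoters. RefSeq windows (GRCh38.p14, 250 bases before to 50 after the start) were found for 37 of the 44 genes. The windows below are those of the 4 genes with the largest rises and the 2 with the largest falls over both guides. Each is printed 5′ to 3′ on the gene's strand in lower case, with capitals for CCAAT (or ATTGG on the other strand), TTTGAA (or TTCAAA), the most common CHR core, and the variant core TTCGAA.
BUB1 (chr2:110678014-110678313, strand -): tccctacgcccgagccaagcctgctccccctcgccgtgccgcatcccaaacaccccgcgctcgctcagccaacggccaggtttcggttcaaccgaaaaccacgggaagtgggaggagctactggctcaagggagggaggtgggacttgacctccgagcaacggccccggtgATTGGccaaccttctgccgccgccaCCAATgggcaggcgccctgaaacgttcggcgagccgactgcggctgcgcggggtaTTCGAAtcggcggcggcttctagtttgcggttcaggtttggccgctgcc
ANLN (chr7:36389612-36389911, strand +): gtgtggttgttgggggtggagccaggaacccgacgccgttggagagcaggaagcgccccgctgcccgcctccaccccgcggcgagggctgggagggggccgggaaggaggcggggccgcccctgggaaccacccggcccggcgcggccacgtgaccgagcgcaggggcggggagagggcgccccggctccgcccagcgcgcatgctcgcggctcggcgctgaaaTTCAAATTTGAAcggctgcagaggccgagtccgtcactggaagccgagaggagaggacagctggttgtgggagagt
DLGAP5 (chr14:55191536-55191835, strand -): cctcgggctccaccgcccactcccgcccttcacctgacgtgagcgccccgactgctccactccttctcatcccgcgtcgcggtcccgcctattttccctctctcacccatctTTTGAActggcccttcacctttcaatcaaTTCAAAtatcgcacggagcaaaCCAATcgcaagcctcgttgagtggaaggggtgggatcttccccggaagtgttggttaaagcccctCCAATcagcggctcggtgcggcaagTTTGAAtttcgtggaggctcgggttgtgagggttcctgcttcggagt
KIF20A (chr5:138178862-138179161, strand +): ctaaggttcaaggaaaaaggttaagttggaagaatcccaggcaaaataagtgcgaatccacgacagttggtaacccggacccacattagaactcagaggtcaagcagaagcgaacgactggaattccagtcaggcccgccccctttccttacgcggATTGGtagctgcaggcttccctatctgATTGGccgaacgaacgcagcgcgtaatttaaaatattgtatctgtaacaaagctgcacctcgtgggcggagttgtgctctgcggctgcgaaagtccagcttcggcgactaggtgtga
CDC25C (chr5:138338306-138338605, strand -): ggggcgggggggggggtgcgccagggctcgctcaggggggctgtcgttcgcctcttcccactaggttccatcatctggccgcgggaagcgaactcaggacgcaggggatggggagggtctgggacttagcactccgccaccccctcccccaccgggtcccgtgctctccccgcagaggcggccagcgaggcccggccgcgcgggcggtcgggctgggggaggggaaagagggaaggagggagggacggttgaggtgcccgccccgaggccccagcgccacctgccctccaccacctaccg
KIF2C (chr1:44739587-44739886, strand +): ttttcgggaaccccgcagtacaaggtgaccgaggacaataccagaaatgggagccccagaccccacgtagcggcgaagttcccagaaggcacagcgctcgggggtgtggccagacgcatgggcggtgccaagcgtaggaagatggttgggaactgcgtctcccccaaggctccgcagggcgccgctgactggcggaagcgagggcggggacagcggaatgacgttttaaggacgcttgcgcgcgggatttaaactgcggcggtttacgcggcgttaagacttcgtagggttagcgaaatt

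The BUB1 window holds 2 CCAAT boxes and 1 TTCGAA. The ANLN window holds a TTCAAA that runs into a TTTGAA and no CCAAT, and the DLGAP5 window holds 2 CCAAT boxes and 3 TTTGAA cores. In KIF20A there are 2 CCAAT boxes and neither core, and in CDC25C and KIF2C none of these letters are present in the window. Over the 37 windows, 28 (75.7%) held CCAAT, against 37.2% of the 8717 windows of tested genes and 34.6% of all 35116 windows. TTTGAA was in 26 (70.3%), against 9.58% and 15.2%, and TTCGAA in 2 (5.41%), against 1.92% and 1.45%. The variant TTCGAA was added to the search after the sequences were seen. CCAAT together with either core was in 23 (62.2%), against 4.85% and 6.38%. Of the 20 windows of genes higher over both guides, 17 held CCAAT and 16 either core. Of the 7 windows of genes lower, 2 held CCAAT and 3 either core, and of the 10 windows of genes not called, 9 and 8 did. For the 37 genes only the first listed start was searched, so an element at another start, also in CDC25C or KIF2C, would not be seen. These counts describe letters in short windows and were not tested.

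**Figure D1:**
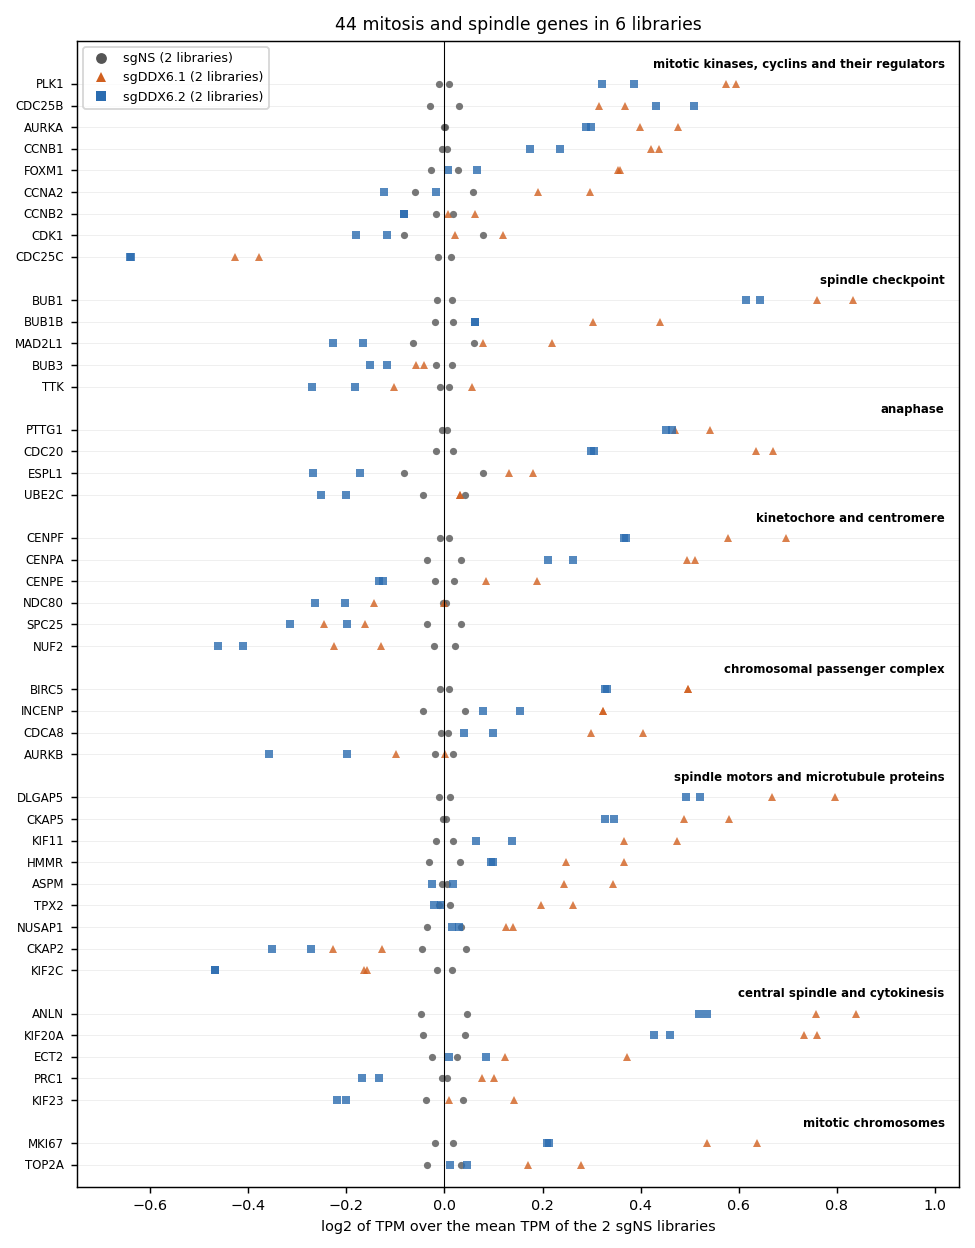
Level of each of the 44 genes in every library, as log2 of TPM over the mean of the 2 sgNS libraries (x axis), with genes grouped by role (y axis). Grey circles are sgNS, orange triangles sgDDX6.1 and blue squares sgDDX6.2. Nearly every gene has its sgDDX6.2 squares to the left of its sgDDX6.1 triangles, and BUB1, ANLN, DLGAP5 and KIF20A lie farthest to the right.

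The first question was how these genes differed from sgNS with both DDX6 guides pooled. Of the 44, 24 rose, 9 fell and 11 did not pass the test over both guides against sgNS (limma on log2(TPM + 1), Benjamini-Hochberg adjusted p under 0.05 over 11151 tested genes). Among all genes tested, 33.8% were higher and 32.9% lower, so changes in either direction were common. The median log2 fold change was 0.14 and the range -0.48 to 0.71, beside a median of 0.00 over all genes. All 4 sgDDX6 libraries lay above both sgNS libraries for 20 of the genes and below for 6, where the shares among all genes were 31.5% and 31.9%. Of the 33 calls, 26 were made under every alternative and with each library left out. The other 7 were TTK, BUB3, NDC80, AURKB, TPX2, ASPM and TOP2A, with log2 fold changes from -0.16 to 0.14. Without sgNS replicate 2 the median of the 44 was 0.13, against 0.0064 over all genes. The calls of AURKB, TTK, BUB3, TPX2, TOP2A and ASPM were then lost, while any other library left out ended fewer calls. When ribosomal protein genes were taken out of the total, 21 of the 44 were higher and 14 lower, against 25.5% and 43.2% of all genes, and the median was 0.05 against -0.09 over all genes. When a trend on transcript GC content was removed, 30 were higher and 7 lower, against 39.8% and 31.8% of all genes.

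Each guide was then set against sgNS. With sgDDX6.1, 28 of the 44 rose and 5 fell, with a median of 0.27, while 31.8% of all genes were higher and 29.7% lower. With sgDDX6.2, 15 rose and 15 fell, with a median of 0.03, while 31.5% of all genes were higher and 32.7% lower. The 2 comparisons share the sgNS libraries. Of the 44 genes, 15 rose and 5 fell with each guide, where 23.9% of all genes did the former and 23.9% the latter. Another 12 rose with sgDDX6.1 and did not pass with sgDDX6.2, against 7.55% of all genes. There were 9 that fell with sgDDX6.2 and did not pass with sgDDX6.1, against 8.49%. MAD2L1 rose with the first and fell with the second, as did 0.350% of all genes, and CCNB2 and CENPE passed with neither, as did 23.3%. With the GC trend removed, the sgDDX6.2 split was 22 higher and 11 lower (36.3% and 32.6% of all genes) and its median 0.11. That median was 0.060 without sgNS replicate 1, 0.0075 without sgNS replicate 2 and 0.014 without sgDDX6.2 replicate 1. With ribosomal protein genes out of the total it was -0.064, so its sign depends on the scaling. Over all genes the sgDDX6.2 median was -0.010 as reported, 0.021 with the GC trend removed and -0.10 without ribosomal protein genes. The median of the 44 lay above that of all genes under each of these scalings. Summed over the 44 genes, TPM was 4291 and 4221 in sgNS, 5296 and 5065 in sgDDX6.1, and 4477 and 4458 in sgDDX6.2. The sums of sgDDX6.2 lay above those of sgNS and below those of sgDDX6.1.

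The difference between the guides is taken from the means of the 4 sgDDX6 libraries, while sgNS adds to the estimate of the spread and to the filter. A fit of these 4 libraries alone gave 39 lower genes in place of 37, where 19.6% of all genes were lower. In sgDDX6.2 against sgDDX6.1, 37 of the 44 genes were lower and 0 were higher, and 7 did not pass. Among all genes tested, 18.6% were lower and 17.0% higher, well below the share of lower genes among the 44. At an unadjusted p under 0.05, 1 gene was higher, CDC25B, the phosphatase that activates CDK1 early in mitosis. The median difference was -0.23, with a range of -0.37 to 0.13, and 43 of the 44 differences were negative. Both sgDDX6.2 libraries lay below both sgDDX6.1 libraries for 42 genes, where the share among all genes was 38.5%. The difference in DDX6 mRNA between the guides was -0.01, as given above. These data hold no protein levels, so how far each guide lowered DDX6 protein is not known. Within sgDDX6.1, replicate 2 was lower than replicate 1 for 38 of the 44 genes, against 65.9% of all tested genes, and its part in the result was not tested. The median difference was -0.21 without sgDDX6.1 replicate 1 and -0.27 without its replicate 2, against -0.00091 and -0.045 over all genes. It was -0.23 and -0.24 without sgDDX6.2 replicate 1 and 2, against -0.021 and -0.030. Fewer of the 44 passed as lower without sgDDX6.1 replicate 1 or either sgDDX6.2 replicate, and fewer of all genes did too. Of the 37 calls, 24 were made under every alternative and with each library left out.

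**Figure D2:**
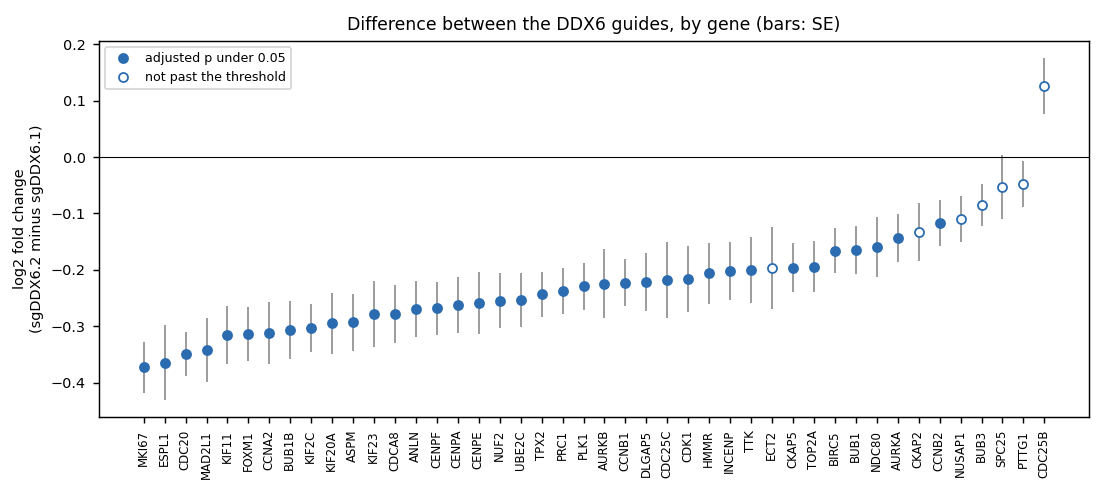
Difference between the DDX6 guides for each of the 44 genes, as the log2 fold change of sgDDX6.2 minus sgDDX6.1 (y axis) with its SE (bars), ordered by size (x axis). Filled circles passed the threshold of 0.05 and open circles did not; the values run from -0.37 for MKI67 to 0.13 for CDC25B.

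Of the kinases, cyclins and their regulators, 5 of 9 rose over both guides and 1 fell (33.8% and 32.9% of all genes). With sgDDX6.2, 8 were lower than with sgDDX6.1 (18.6% of all genes). PLK1, the kinase that drives centrosome maturation and mitotic exit, rose by 0.47. AURKA, which builds the spindle poles, rose by 0.36, and CCNB1, the cyclin that activates CDK1 at mitotic entry, by 0.31. CDC25B rose by 0.40, and FOXM1, the transcription factor that activates late cell cycle genes, by 0.19. FOXM1 had 0.35 with sgDDX6.1 and 0.04 with sgDDX6.2, which did not pass (adjusted p = 0.523). CDK1 itself had a log2 fold change of -0.04, its partner CCNA2 0.09 and CCNB2 -0.02, none past the threshold. With sgDDX6.2 alone CDK1 had -0.14 (adjusted p = 0.0485), which turned to 0.05 when the GC trend was removed. This call was lost without any single library other than sgNS replicate 2, with adjusted p from 0.0567 to 0.399, and the value was -0.07 without sgNS replicate 1.

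CDC25C, the phosphatase that removes inhibitory phosphates from CDK1, went the other way from CDC25B. CDC25C (chromosome 5, 138285265 to 138338355, minus strand) had 15.61 and 15.88 TPM in sgNS, 11.71 and 12.12 in sgDDX6.1, and 10.11 and 10.10 in sgDDX6.2. All 4 sgDDX6 libraries lay below both sgNS libraries, and the guides did not overlap. Over both guides CDC25C had a log2 fold change of -0.48 (SE 0.06, adjusted p = 1.71e-05), the largest fall of the 44 genes, and CDC25C had the lowest mean level, 12.6 TPM. The guide difference in CDC25C was -0.22 (adjusted p = 0.0264), and its adjusted p was between 0.0758 and 0.122 without sgDDX6.1 replicate 2 or either sgDDX6.2 replicate.

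The spindle checkpoint holds anaphase back until every kinetochore is attached. Of its 5 genes, 2 rose, 2 fell, and 4 were lower with sgDDX6.2 (33.8%, 32.9% and 18.6% of all genes). BUB1, the kinase that recruits checkpoint proteins to kinetochores, rose most of the 44. BUB1 (chromosome 2, 110637698 to 110678114, minus strand) had 101.72 and 99.61 TPM in sgNS, 179.31 and 170.42 in sgDDX6.1, and 157.30 and 154.26 in sgDDX6.2. The 3 groups did not overlap. The change was 1.63-fold over both guides (log2 0.71, SE 0.04, adjusted p = 1.64e-08), and 0.79 and 0.62 with the single guides. The guide difference in BUB1 was -0.17 (adjusted p = 0.0116), and its adjusted p was between 0.0565 and 0.102 without sgDDX6.1 replicate 1 or either sgDDX6.2 replicate. Its paralog BUB1B, the checkpoint inhibitor BubR1, rose by 0.22. BUB1B had 0.37 with sgDDX6.1 and 0.06 with sgDDX6.2, which did not pass (adjusted p = 0.302). BUB3, the scaffold that both bind, had a log2 fold change of -0.09 that passed and became 0.01 with the GC trend removed. The kinase TTK, which starts checkpoint signalling, had -0.12 (adjusted p = 0.0492), which did not pass with the GC trend removed. With sgDDX6.1 alone BUB3 and TTK had -0.05 and -0.02, neither past the threshold.

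MAD2L1, the checkpoint protein that sequesters CDC20, was called in opposite directions with the 2 guides. It had 146.24 and 134.09 TPM in sgNS, 163.12 and 147.93 in sgDDX6.1, and 125.00 and 119.66 in sgDDX6.2. The log2 fold change of MAD2L1 was 0.15 with sgDDX6.1 (adjusted p = 0.0392) and -0.19 with sgDDX6.2 (adjusted p = 0.0104). The difference between the guides was -0.34 (SE 0.06, adjusted p = 0.000974). Neither call against sgNS held throughout: the first did not pass after quantile normalization (adjusted p = 0.215) and the second did not with the GC trend removed (adjusted p = 0.282). Leaving out sgDDX6.1 replicate 1 or sgNS replicate 2 ended the first call of MAD2L1 (adjusted p = 0.297 and 0.255), and leaving out sgDDX6.2 replicate 2 or sgNS replicate 1 ended the second (adjusted p = 0.0754 and 0.0828).

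Of the 4 anaphase genes, 2 rose and 0 fell over both guides, and 3 were lower with sgDDX6.2 (33.8%, 32.9% and 18.6% of all genes). CDC20, the activator of the anaphase-promoting complex, had 132.91 and 136.14 TPM in sgNS, 214.06 and 208.82 in sgDDX6.1, and 165.47 and 166.21 in sgDDX6.2. The groups did not overlap, and CDC20 was higher with each guide, by 0.65 and 0.30. The guide difference in CDC20 was -0.35 (SE 0.04, adjusted p = 8.42e-05). PTTG1, the securin that keeps separase inactive, rose by 0.48, by 0.50 and 0.46 with the single guides, and its guide difference of -0.05 did not pass (adjusted p = 0.383). The near-identical copy PTTG2 had at most 0.15 TPM in any library.

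ESPL1, the separase that cuts cohesin, had 28.17 and 31.52 TPM in sgNS, 33.84 and 32.70 in sgDDX6.1, and 24.77 and 26.49 in sgDDX6.2. Over both guides ESPL1 had a log2 fold change of -0.03 (adjusted p = 0.679), while the guides differed by -0.36 (SE 0.07, adjusted p = 0.00174). UBE2C, the ubiquitin-conjugating enzyme of the anaphase-promoting complex, had -0.10 over both guides, which did not pass, and was lower with sgDDX6.2 than with sgDDX6.1 by 0.25 on the log2 scale.

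**Figure D3:**
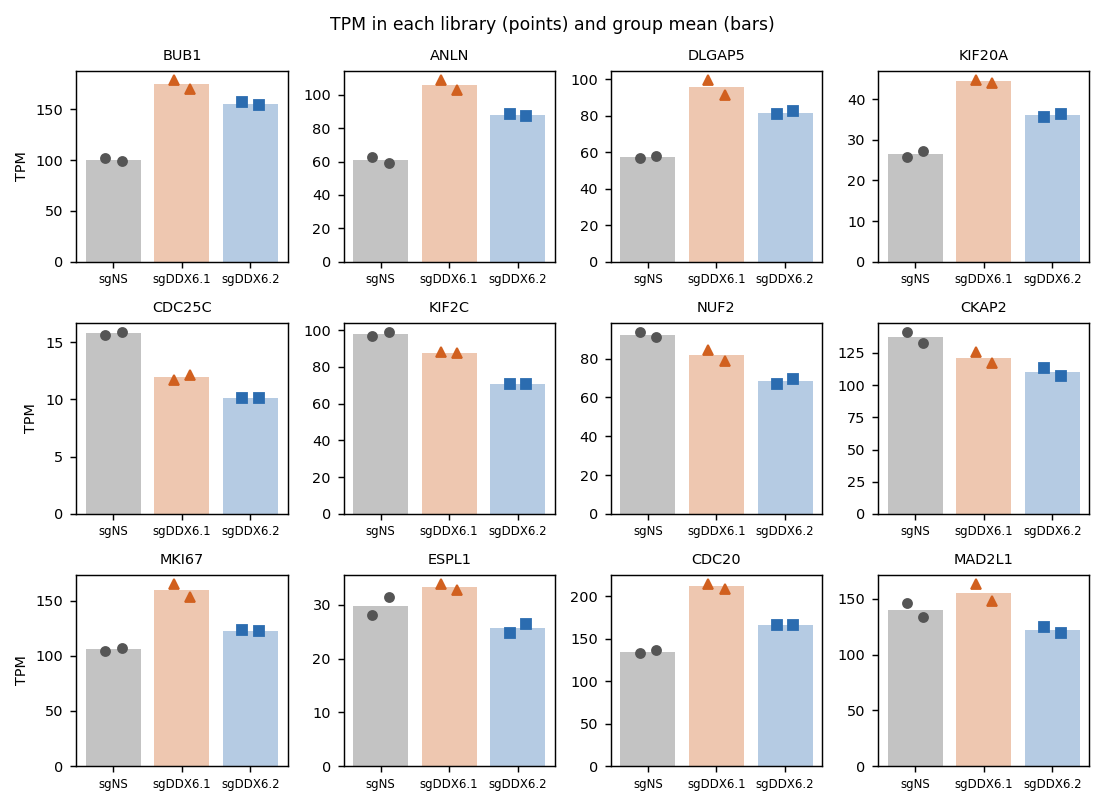
TPM in each library (points) and the group mean (bars) for 12 genes, with the guide on the x axis and TPM on the y axis, which starts at 0 in each panel. The top row rises in the order sgNS, sgDDX6.2, sgDDX6.1, as in BUB1, the middle row falls from sgNS to sgDDX6.1 to sgDDX6.2, as in CDC25C, and the bottom row shows the 4 genes with the largest guide differences.

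Kinetochore genes moved in both directions, as did all tested genes. CENPF, a large kinetochore protein of the outer layer, rose by 0.50, and CENPA, the histone variant that marks centromeres, by 0.36. Of the microtubule-binding NDC80 complex, NUF2, SPC25 and NDC80 fell by 0.30, 0.23 and 0.15. Its remaining subunit SPC24, which is not among the 44 and was looked up after the values were seen, had 0.05 (adjusted p = 0.451). NUF2 (chromosome 1, 163266576 to 163355764, plus strand) had 93.78 and 91.01 TPM in sgNS, 84.44 and 78.99 in sgDDX6.1, and 67.13 and 69.51 in sgDDX6.2. The groups of NUF2 did not overlap, and its adjusted p over both guides was 6.33e-05 (SE 0.04). The NDC80 call did not pass with the GC trend removed (-0.03, adjusted p = 0.391). With sgDDX6.1 alone NDC80 had -0.07, which did not pass (adjusted p = 0.257). The motor CENPE had 0.00 over both guides and differed between guides by -0.26. In all, 2 of 6 kinetochore genes rose, 3 fell, and 5 were lower with sgDDX6.2 (33.8%, 32.9% and 18.6% of all genes).

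The chromosomal passenger complex, which corrects wrong attachments and then moves to the central spindle, also moved in both directions. BIRC5 (survivin) rose by 0.41, INCENP, its scaffold, by 0.22 and CDCA8 (borealin) by 0.21. INCENP and CDCA8 had 0.32 and 0.35 with sgDDX6.1. With sgDDX6.2 they had 0.12 and 0.07, neither past the threshold. The catalytic subunit AURKB fell by 0.16 (adjusted p = 0.0185), with 54.73 and 56.15 TPM in sgNS, 55.47 and 51.79 in sgDDX6.1, and 43.29 and 48.29 in sgDDX6.2. The sgDDX6.1 libraries overlapped sgNS for AURKB and the sgDDX6.2 libraries lay below. All 4 subunits were lower with sgDDX6.2 than with sgDDX6.1, against 18.6% of all genes. Without sgDDX6.2 replicate 1 this call was lost for AURKB, BIRC5 and INCENP (adjusted p = 0.179, 0.0721 and 0.115), without sgDDX6.2 replicate 2 for BIRC5 (0.0652), and without sgDDX6.1 replicate 1 for AURKB (0.113).

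Spindle motors and microtubule proteins rose in 6 of 9 cases and fell in 2 (33.8% and 32.9% of all genes). With sgDDX6.2, 7 were lower than with sgDDX6.1 (18.6% of all genes). DLGAP5, a protein that stabilises kinetochore fibres, led this group. DLGAP5 (chromosome 14, 55148112 to 55191678, minus strand) had 57.08 and 57.93 TPM in sgNS, 99.80 and 91.33 in sgDDX6.1, and 80.94 and 82.50 in sgDDX6.2. The groups did not overlap, and the change over both guides was 1.53-fold (log2 0.61, SE 0.04, adjusted p = 2.72e-07). CKAP5, a microtubule polymerase, rose by 0.43, and KIF11, the motor that pushes spindle poles apart, by 0.26. HMMR, ASPM and TPX2, which act at spindle poles, had 0.20, 0.14 and 0.11. Of these, ASPM and TPX2 did not pass with ribosomal protein genes out of the total. KIF11, HMMR, ASPM and TPX2 rose with sgDDX6.1, by 0.41, 0.30, 0.29 and 0.23. With sgDDX6.2 they had 0.10, 0.10, -0.0036 and -0.015, none past the threshold. NUSAP1 had 0.08, which did not pass.

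KIF2C and CKAP2 were the exceptions in this group. KIF2C, a motor that takes microtubules apart at kinetochores (chromosome 1, 44739818 to 44767767, plus strand), had 97.07 and 99.09 TPM in sgNS, 87.93 and 87.54 in sgDDX6.1, and 70.96 and 70.94 in sgDDX6.2. It fell with both guides and further with the second, with a log2 fold change of -0.31 over both (SE 0.04, adjusted p = 1.71e-05) and a guide difference of -0.30 (adjusted p = 0.000379). CKAP2, a microtubule nucleation factor, had 141.34 and 132.86 TPM in sgNS, 125.51 and 117.05 in sgDDX6.1, and 113.60 and 107.41 in sgDDX6.2. Its log2 fold change was -0.24 (SE 0.04, adjusted p = 0.000494), and its guide difference of -0.13 did not pass (adjusted p = 0.0641).

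Of 5 central spindle and cytokinesis genes, 2 rose, 0 fell, and 4 were lower with sgDDX6.2 (33.8%, 32.9% and 18.6% of all genes). ANLN, the actin-binding scaffold of the contractile ring (chromosome 7, 36389806 to 36453791, plus strand), had 62.94 and 58.97 TPM in sgNS, 109.07 and 103.10 in sgDDX6.1, and 88.29 and 87.37 in sgDDX6.2. The change was 1.57-fold over both guides (log2 0.66, SE 0.04, adjusted p = 1.21e-07), with no overlap between the groups. KIF20A, the motor that carries PLK1 and passenger proteins to the midzone (chromosome 5, 138178719 to 138187715, plus strand), had 25.69 and 27.25 TPM in sgNS, 44.79 and 43.97 in sgDDX6.1, and 35.57 and 36.41 in sgDDX6.2. KIF20A was 1.49-fold higher (log2 0.58, SE 0.05, adjusted p = 7.58e-07), again without overlap. KIF23 and PRC1, the other midzone proteins, had -0.07 and -0.03, and ECT2, which activates the ring's GTPase, 0.15, none past the threshold. KIF23 and PRC1 were lower with sgDDX6.2 than with sgDDX6.1, by 0.28 and 0.24 on the log2 scale.

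The 2 genes of mitotic chromosomes rose and were lower with sgDDX6.2 than with sgDDX6.1. MKI67, the Ki-67 protein that coats chromosomes and serves as a proliferation marker, had 104.71 and 107.40 TPM in sgNS, 164.92 and 153.69 in sgDDX6.1, and 122.91 and 122.57 in sgDDX6.2. Its log2 fold change was 0.40 over both guides (SE 0.04, adjusted p = 3.71e-06), and 0.58 and 0.21 with the single guides. The guide difference of MKI67, -0.37 (SE 0.05, adjusted p = 0.000138), was the largest of the 44. TOP2A, the topoisomerase that untangles chromosomes, was the most abundant, with a mean of 284 TPM. TOP2A had 273.96 and 260.95 TPM in sgNS, 324.18 and 300.88 in sgDDX6.1, and 276.06 and 269.65 in sgDDX6.2. Its change of 0.13 over both guides (adjusted p = 0.0128) overlapped sgNS through the sgDDX6.2 libraries and did not pass with ribosomal protein genes out of the total (0.03, adjusted p = 0.448).

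Other genes of mitosis, from 5 further lists, were set beside the 44. Of 124 tested, 43 rose and 40 fell over both guides, near the 33.8% and 32.9% of all genes. With sgDDX6.2 against sgDDX6.1, 70 were lower and 1 higher, with a median difference of -0.17. The shares of all genes were 18.6% and 17.0%, and the same shares apply to each list below. In the anaphase-promoting complex and its regulators, 8 of 18 rose and 5 fell, and the subunits ANAPC15, CDC26 and ANAPC5 rose by 0.56, 0.55 and 0.51. Of these 18, 4 were lower with sgDDX6.2, near the 18.6% of all genes. Of 33 other kinetochore and centromere genes, 12 rose, 13 fell and 20 were lower with sgDDX6.2, and the calls with the lowest adjusted p were falls of CENPU, SKA1 and CENPH, inner and outer kinetochore proteins, by 0.74, 0.73 and 0.66. Of 19 condensin and cohesin genes, 3 rose and 7 fell: the condensin subunits NCAPD2 and NCAPD3 rose by 0.44 and 0.37, and the cohesin subunit STAG2 fell by 0.48. Of 38 other spindle, centrosome and cytokinesis genes, 17 rose, 7 fell and 26 were lower with sgDDX6.2. The tubulins TUBB4B, TUBA1C and TUBA1B rose by 1.03, 0.99 and 0.83, values that are uncertain because near-identical tubulin genes share reads. Of 16 genes of mitotic entry and exit, 3 rose and 8 fell; GTSE1, a microtubule-binding protein of G2, rose by 0.54, and the kinases MASTL and WEE1 fell by 0.61 and 0.43.

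Lists of other cell cycle stages were counted in the same way. Among all genes, 33.8% rose and 32.9% fell over both guides, and 18.6% were lower and 17.0% higher with sgDDX6.2 against sgDDX6.1. The list of the DREAM and MuvB complexes also held the NF-Y genes NFYA, NFYB and NFYC. In this list 10 of 14 fell and 3 rose, among them falls of LIN54, TFDP2 and RBL1, by 0.61, 0.58 and 0.41. These 3 are subunits and partners of the repressor. With sgDDX6.2 against sgDDX6.1, 6 of the 14 were lower and 2 higher, and TFDP2 was higher by 0.41. Of 45 genes of DNA replication and S phase, 24 fell and 4 rose, with a median of -0.16. The licensing factor CDT1, the primase subunit PRIM1 and the helicase subunit MCM6 fell by 1.09, 0.93 and 0.56. With sgDDX6.2 against sgDDX6.1, 21 of the 45 were lower and 2 higher. In the list of G1 cyclins and CDK inhibitors, which also held CDKs, RB1 and E2F factors, 4 of 14 rose and 7 fell. The kinase CDK4 and the factor E2F2 fell by 0.38 and 0.59, and the inhibitor CDKN2C rose by 0.37.

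**Figure D4:**
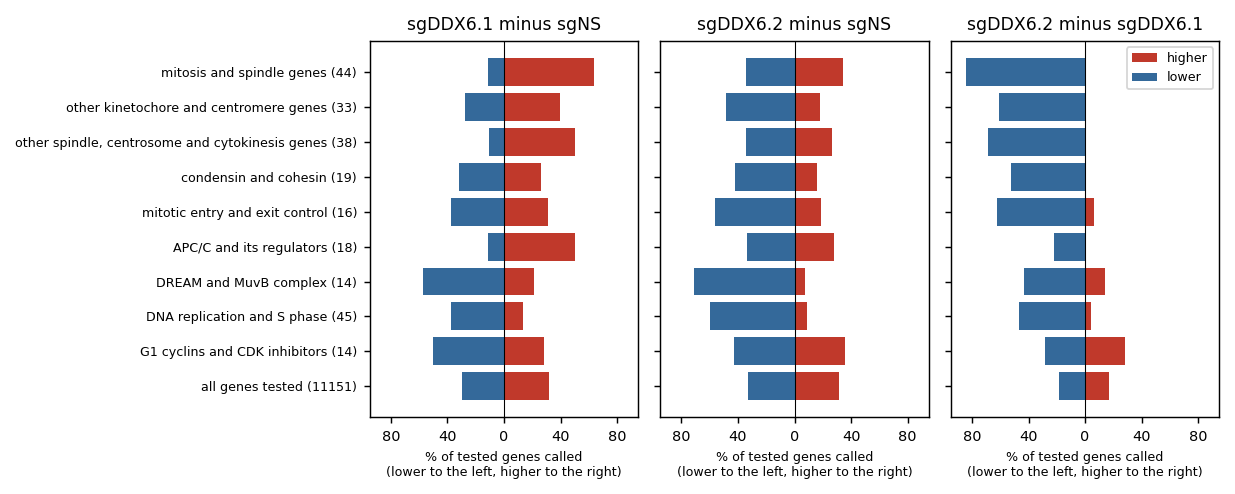
Share of tested genes called lower (left of 0) and higher (right of 0), in percent (x axis), for the 44 genes, 8 other lists and all genes tested (y axis, with numbers of genes), in 3 comparisons. In the panel of sgDDX6.2 minus sgDDX6.1, the 44 genes have 37 called lower and 0 higher, while all genes tested have 18.6% lower and 17.0% higher.

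Transcript properties were compared because GC content moved with the fold change across all genes. The median transcript GC content of the 44 genes was 43.2%, against 48.6% over all tested genes, and the median length was 3344 bases against 3331. Across all tested genes, GC content and the log2 fold change over both guides had a Spearman rho of 0.24, and GC content and the guide difference 0.19. Across the 44 genes the values were 0.21 and -0.12. Genes are not independent replicates, so these values are descriptions. With the GC trend removed from each library, the count of the 44 lower with sgDDX6.2 than with sgDDX6.1 was 38, against 26.3% of all genes.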

How the data were processed

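Poly(A)+ RNA of Mono-mac-6 cells was sequenced in 6 libraries, and groups were taken from the labels (sgNS, sgDDX6.1 and sgDDX6.2, 2 libraries each). The authors deposited TPM per gene symbol, made with RSEM 1.2.31 on GRCh38 per the submitters' processing notes. Aligner and annotation: not given in the sources used here. Since TPM is a length-corrected share of a fixed total, depth is unknown, and no interval that needs counts is given. The table had 0 columns of per-sample values without a sample.

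Values were taken as log2(TPM + 1). The filter required 1 TPM in 2 libraries or more, which 11151 genes met. In limma 3.58.1 (R 4.3.3), 1 mean per group was fitted over the 6 libraries, leaving 3 residual degrees of freedom, with a variance trend, two-sided tests, Benjamini-Hochberg adjustment over all tested genes in each contrast and a threshold of 0.05. On this log2 scale the change of low genes is understated. The fit was tested on simulated data. Coordinates, length and GC content are those of GENCODE release 29 (GRCh38), longest protein-coding transcript, and promoters those of RefSeq (GRCh38.p14), taking the first listed start of a gene.

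The members, lists and tests were chosen with earlier results of these data known. Library values are given for DDX6, for members called over both guides with a log2 fold change of at least 0.5, the 4 largest falls, the 4 largest guide differences, and the most and least abundant members. Up to 3 genes of each other list are named by lowest adjusted p. AURKB's library values, SPC24, PTTG2 and the marker genes named singly lie outside this rule and were chosen after their values were seen. Alternatives were other pseudocounts, filters, normalizations and limma settings, the replicate number as a block, and a loess correction for GC content. Further ones were a fit of only the groups compared, and each library left out. Removal of 85 ribosomal protein genes from the total was added after the data were seen.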

Additional observations from a re-analysis of the deposited data

Results flagged for a closer look

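The 37 results below are flagged because the effects of the 2 DDX6 guides against the same sgNS libraries differed by the test of the difference itself (limma, adjusted p under 0.05). Each value is the log2 fold change of sgDDX6.2 minus sgDDX6.1, and every one is negative. Groups of 2 libraries are too small for a search for single outlying libraries.

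Among kinases, cyclins and their regulators the differences were -0.31 for FOXM1, -0.31 for CCNA2, -0.23 for PLK1, -0.22 for CCNB1, -0.22 for CDC25C, -0.22 for CDK1, -0.14 for AURKA and -0.12 for CCNB2. In the spindle checkpoint the differences were -0.34 for MAD2L1, -0.31 for BUB1B, -0.20 for TTK and -0.17 for BUB1. Among anaphase genes the differences were -0.36 for ESPL1, -0.35 for CDC20 and -0.25 for UBE2C. At the kinetochore and centromere the differences were -0.27 for CENPF, -0.26 for CENPA, -0.26 for CENPE, -0.25 for NUF2 and -0.16 for NDC80. In the chromosomal passenger complex the differences were -0.28 for CDCA8, -0.22 for AURKB, -0.20 for INCENP and -0.17 for BIRC5. Among spindle motors and microtubule proteins the differences were -0.32 for KIF11, -0.30 for KIF2C, -0.29 for ASPM, -0.24 for TPX2, -0.22 for DLGAP5, -0.21 for HMMR and -0.20 for CKAP5. In the central spindle and cytokinesis the differences were -0.29 for KIF20A, -0.28 for KIF23, -0.27 for ANLN and -0.24 for PRC1. On mitotic chromosomes the differences were -0.37 for MKI67 and -0.19 for TOP2A.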

How the results depend on the processing

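There were 19 alternatives. The number of the 44 genes lower with sgDDX6.2 than with sgDDX6.1 was 37 in the fit as reported. With no library left out it was 31 to 41, where the share over all genes went from 8.87% to 26.9%. With a library left out, the median difference of the 44 lay between -0.27 and -0.21. The number higher with sgDDX6.2 than with sgDDX6.1 was 0, and 1 (CDC25B) under quantile normalization, median centring and the replicate block. With ribosomal protein genes out of the total, 14 genes were lower over both guides. All tested genes then split over both guides into 2848 higher and 4814 lower, in place of 3764 and 3670. The median of the 44 for sgDDX6.2 against sgNS was then -0.064, against -0.10 over all genes. Members lower with sgDDX6.1 numbered 5, and 3 with the GC correction, alone or with the replicate block. With a library left out they numbered 2 (without sgDDX6.1 replicate 2) to 6, with 3 without sgNS replicate 1. With the GC correction, alone or with the block, values turned positive over both guides for CDK1 (0.13), BUB3 (0.011) and MAD2L1 (0.11), and with sgDDX6.2 for CDK1 (0.050) and ASPM (0.19). The cause was not tested. Over all 3300 comparisons of a member's value with an alternative, 55 changed sign while passing neither as reported nor under the alternative.

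Replicate differences of the groups correlated at 0.26, 0.10 and 0.04 across genes. The labels do not say whether replicate numbers pair the libraries, and these values do not settle it. With the replicate block, 27 members were higher and 10 lower over both guides, against 35.6% and 34.9% of all genes. With sgDDX6.1 they were 31 and 5 (34.2% and 32.2% of all genes), and with sgDDX6.2 17 and 17 (33.7% and 34.9%). Between the guides they were 1 and 41, against 19.7% and 23.5%. The fit of only the groups compared gives no value for both guides together. TPM carries no read depth, so counting error is unknown.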
